A study of Mus musculus with 12 samples.

Results

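The 8 genes described here are those of interleukin 1 (IL-1) and interleukin 18 (IL-18) signalling and its natural brakes: the ligands Il1a, Il1b and Il18, the soluble inhibitors Il1rn and Il18bp, the IL-1 receptor Il1r1, its accessory chain Il1rap and the decoy receptor Il1r2. They were taken by symbol from a fixed list of names, and all 8 were found among the 43278 symbols of the table. Expression was measured by RNA sequencing in 12 libraries of wild-type C57BL/6J peritoneal macrophages (PMφs), which were collected by lavage 4 days after an injection of 4% thioglycolate into male and female mice of 8 to 12 weeks and used as adherent cells after 18 h of culture. The groups, of 3 libraries each, were control (no oxLDL and no LPS), oxLDL (human medium oxidized low-density lipoprotein at 100 µg/ml for 24 h), LPS (ultrapure lipopolysaccharide at 10 ng/ml) and oxLDL+LPS (the same oxLDL loading followed by the same LPS). How long LPS was present is not given for these libraries in the sources used here. The methods describe pools of littermates' cells that were split over the 4 groups, so a library stands for a pool and not for a mouse.

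IL-1α and IL-1β, the proteins of Il1a and Il1b, bind the receptor IL-1R1, which then recruits the accessory chain IL-1RAP and signals through MyD88 and the IRAK kinases to NF-κB. The pathway is held back by the receptor antagonist IL-1RA (Il1rn), which occupies IL-1R1 without signalling, and by the decoy receptor IL-1R2, which binds IL-1 but has no signalling domain. IL-18 is held back in a similar way by the soluble IL-18 binding protein (Il18bp). Macrophages are a main source of IL-1, and IL-1β and IL-18 are made as inactive precursors that caspase-1 cuts, so transcript levels do not give the amount of active cytokine.

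All values below are normalized counts, that is, counts of reads on a gene's exons that, judged by their spacing, were scaled by 1 factor per library. The scaling step itself is not given in the sources used here. The libraries held 16725623 to 26178592 reads on genes, as implied by the spacing of the values. Each of 8 macrophage markers was expressed, with summed levels of 231967 to 347950 in every library. Sums of 10 neutrophil markers reached 260 at most, with Ly6g at 0 in all libraries and S100a9 at 1 or below. Of the 10, 3 reached 10 in at least 3 libraries, S100a8 (31 to 248, highest with oxLDL+LPS), Cxcr2 (0 to 43) and Ltf (1 to 25). Sums of B cell, T and NK cell, mast cell and eosinophil markers ran from 21 to 386. Sums of 11 mesothelial and fibroblast markers were far higher and followed the replicate number. They were 18735 to 32245 in number 1, 14851 to 17843 in number 2 and 5479 to 6354 in number 3. The same markers bear on Il1r1, described with the receptors.

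The sequences in front of the 2 IL-1 ligand genes are shown because Il1a and Il1b moved together in every comparison with LPS. This was not particular to the pair. Over the 12 libraries they correlated by 0.988 (Pearson r), and Il18 correlated by 0.989 with Il1a and 0.992 with Il1b. A link between motifs and levels was not tested. Il1a lies at chr2:129299610-129309972 and Il1b at chr2:129364570-129371139, both on the minus strand of GRCm38, and the 250 bases shown are chr2:129309973-129310222 and chr2:129371140-129371389, read 5′ to 3′ on the minus strand up to the base before the RefSeq start (GRCm38.p6). Capitals mark matches to the searched motifs.
Il1a: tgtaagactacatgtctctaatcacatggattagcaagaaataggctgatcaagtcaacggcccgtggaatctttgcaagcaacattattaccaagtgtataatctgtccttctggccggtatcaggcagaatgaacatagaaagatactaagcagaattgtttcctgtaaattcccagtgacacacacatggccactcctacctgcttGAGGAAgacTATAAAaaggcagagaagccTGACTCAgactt
Il1b: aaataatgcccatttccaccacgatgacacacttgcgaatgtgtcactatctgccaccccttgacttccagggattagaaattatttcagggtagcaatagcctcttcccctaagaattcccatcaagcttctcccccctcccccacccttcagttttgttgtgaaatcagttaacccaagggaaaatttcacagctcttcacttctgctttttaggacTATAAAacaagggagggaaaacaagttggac
Both windows hold a TATA box match (TATAAA), 32 bases before the start in Il1a and 31 bases before it in Il1b, and such a match on either strand is present in 12.4% of 32841 windows of 250 bases before mouse gene starts. The Il1a window also holds the PU.1 core GAGGAA, found in 23.3% of all windows, and an AP-1 site (TGANTCA), found in 6.75%. These matches in Il1a do not overlap. Of the other members, Il1rn at chr2:24336853-24351494 had an AP-1 match 141 bases before its first start, and Il18 had a TATA box match on the opposite strand. The NF-κB consensus, found in 7.25% of windows, was matched only before the second start of Il1r1, and the core of the interferon-stimulated response element, found in 2.98%, before none of the members' 11 starts.

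The first comparison asked which of these genes responded to LPS alone. LPS raised 6 members, the ligands Il1a, Il1b and Il18, the inhibitors Il1rn and Il18bp, and the accessory chain Il1rap. Of all genes tested in this comparison, 61.7% were called and 31.4% were called higher, at a Benjamini-Hochberg adjusted p under 0.1 in limma. The groups of these 6 genes did not overlap, as for 32.1% of genes in this direction. The other member tested, Il1r1, was not called in the fit without a block, and Il1r2 was too low to test. The 7 members tested had a median log2 fold change of 3.43, while that of all genes was -0.00097. Scaling every library to the same total moved the median of all genes to -0.48 and the calls from 4093 higher and 3946 lower to 2210 and 7200, and the same 6 members were still called higher.

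Il1b, which encodes IL-1β, went from a few reads to rank 16 per kilobase of exon among the 39443 genes with a known exon length. It stood at 20, 11 and 7 normalized counts in control libraries 1, 2 and 3, which are 25, 12 and 8 reads. With LPS it reached 51068, 85645 and 152939, or 0.387% of all normalized counts on average. The log2 fold change was 12.76 (SE 0.45, adjusted p = 5.68e-07). Il1a, which encodes IL-1α, started higher, at 359, 467 and 342 in control libraries, and rose to 41095, 136940 and 146652 with LPS. Its log2 fold change was 7.92 (SE 0.45, adjusted p = 5.67e-06). For both ligands number 1 was the lowest of the LPS libraries. Il18, at chr9:50554827-50581840, rose from 72, 87 and 96 to 909, 1160 and 1550 (log2 fold change 3.79, SE 0.21, adjusted p = 4.82e-06). Number 1 was again the lowest.

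The 2 soluble inhibitors rose with the ligands. Il1rn, already the highest member per length in control cells, was at 4422, 2527 and 2983, and stood at 35067, 32859 and 36214 with LPS. The 3 LPS libraries lay close together, unlike those of Il1a and Il1b, and the log2 fold change was 3.43 (SE 0.20, adjusted p = 5.78e-06). Il18bp, at chr7:102014885-102018690, rose from 101, 78 and 88 to 937, 658 and 918 (log2 fold change 3.21, SE 0.18, adjusted p = 4.72e-06). Number 2 was the lowest in both groups. Il1rap, at chr16:26581704-26730117, rose from 203, 234 and 213 to 681, 823 and 983 (log2 fold change 1.92, SE 0.15, adjusted p = 2.94e-05), the smallest rise among the 6 members called.

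**Figure D1:**
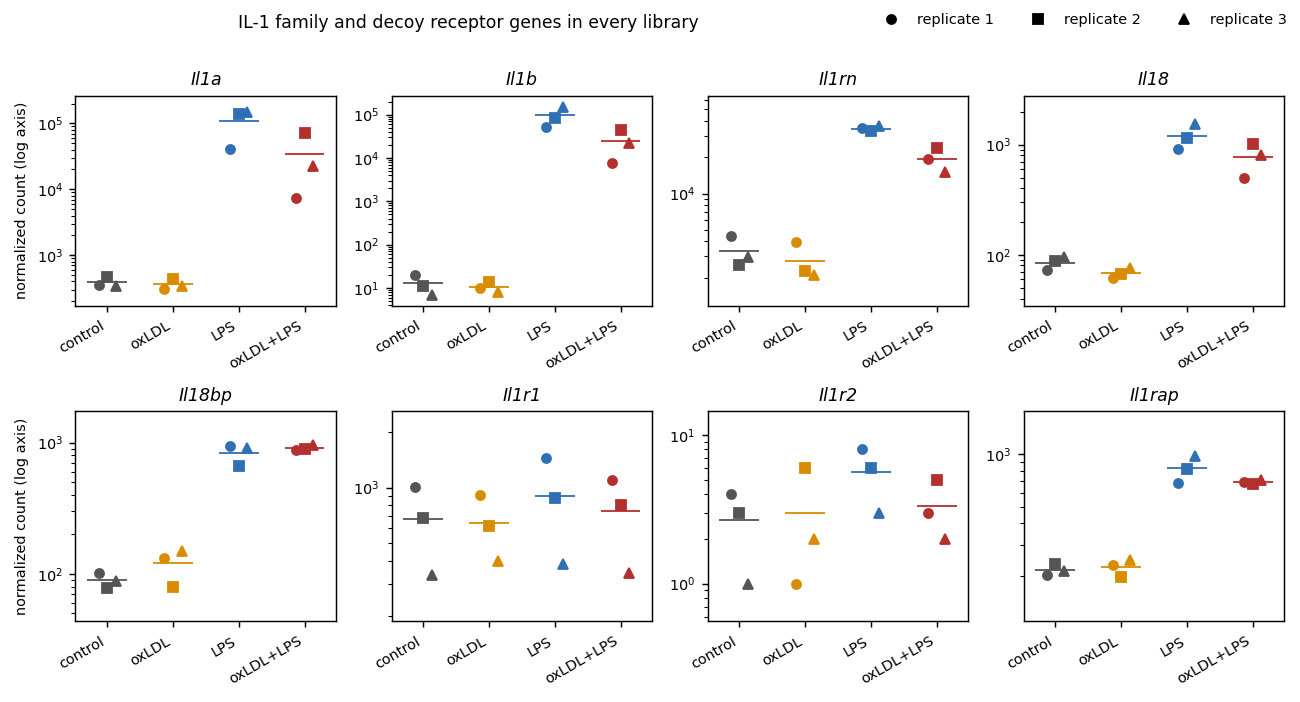
Normalized count (log axis, with its own range in each panel) of the 8 genes in all 12 libraries, with symbols for the replicate number and a line at each group's mean. Il1a, Il1b, Il1rn, Il18, Il18bp and Il1rap are higher in all LPS-treated libraries than in all others, Il1r1 follows the replicate number in every group, and Il1r2 stays between 1 and 8.

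In cells loaded with oxLDL beforehand, LPS raised the same 6 members, against 28.2% of all genes called higher and 54.5% called in either direction. The median log2 fold change was 2.96 over the 7 members tested and -0.02 over all genes. Il1b rose from 10, 14 and 8 in oxLDL libraries to 7630, 44508 and 21943 in oxLDL+LPS libraries (log2 fold change 10.74, SE 0.58, adjusted p = 8.89e-06). Il1a rose from 309, 437 and 344 to 7499, 72239 and 22810 (log2 fold change 6.003, SE 0.71, adjusted p = 4.25e-04). For both ligands the libraries of this group ran over a wider fold range than those of LPS alone, with number 2 the highest. Il1rn rose from 3927, 2281 and 2103 to 19283, 23971 and 15054, with a log2 fold change of 2.84 (SE 0.26, adjusted p = 1.31e-04). Il18 (3.43, SE 0.26), Il18bp (2.96, SE 0.23) and Il1rap (1.63, SE 0.11) were also called, with adjusted p-values of 4.56e-05, 4.92e-05 and 3.19e-05, and none of the 6 genes overlapped between the groups, as for 29.6% of genes in this direction.

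oxLDL by itself, compared with control, left the IL-1 genes near their control levels. None of the 7 members tested was called, and 0% of the 12751 genes tested in limma were called, although 381, or 2.99%, had an unadjusted p under 0.05, with no member among them. With a block for the replicate number, 4.71% of genes were called and 2.92% were called lower, and 1 member, Il1rn, was among the latter. Il1rn stood at 88.8%, 90.3% and 70.5% of the control library of the same number (log2 fold change -0.27, blocked SE 0.06, adjusted p = 0.0509; 1 without the block). With 2 of the 3 numbers, that call was kept without number 3 (adjusted p = 0.00253) and lost without number 1 (0.130) or number 2 (0.157). The log2 fold changes of Il1rn in these fits were -0.16, -0.33 and -0.34, so the call was kept where the estimate was smallest. Over all genes, 532 of 12451 were called higher and 753 lower without number 3. Without number 1 these were 90 and 124 of 12376, and without number 2 they were 61 and 78 of 12368. Il18 was also lower in all 3 numbers, at 62, 67 and 76 (log2 fold change -0.31, blocked adjusted p = 0.290), and Il18bp was higher in all 3, at 131, 80 and 150 (0.39, blocked adjusted p = 0.213). Neither passed the test. Il1a and Il1b differed in both directions between numbers, with log2 fold changes of -0.10 and -0.15.

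The comparison of oxLDL+LPS with LPS asked whether oxLDL loading changed the response to LPS. Il1a, Il1b, Il1rn and Il18 were lower in the oxLDL+LPS library than in the LPS library of the same number in all 3 numbers. These 4 members passed the test once the replicate number was a block. Il1r1 was also lower in all 3 numbers, at 76.0%, 92.0% and 89.8% of its LPS level, and did not pass. Its log2 fold change was -0.22 (adjusted p = 0.146 with the block in limma). Il1r2, too low to test, was lower in all 3 numbers as well. Without the block none of the 7 members tested was called, nor was any of the 12786 genes (0%) in limma, with 890 genes, or 6.96%, and 3 members, Il1a, Il1b and Il1rn, at an unadjusted p under 0.05. With the block 13.2% of genes were called and 8.74% were called lower. The median log2 fold change was -0.66 over the 7 members and -0.01 over all genes. The group ranges did not overlap for Il1b and Il1rn, as for 6.39% of all genes in this direction, and they overlapped for Il1a and Il18.

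Il1b was at 14.9%, 52.0% and 14.3% of its LPS level in numbers 1, 2 and 3. Its log2 fold change was -2.16, with an SE of 0.67 and an adjusted p of 0.698 without the block and 0.31 and 0.00787 with it. Il1a gave nearly the same figures, at 18.2%, 52.8% and 15.6% of its LPS level. Its log2 fold change was -2.02, with an SE of 0.85 and an adjusted p of 0.705 without the block and 0.29 and 0.00787 with it. Numbers 1 and 3 were thus close to each other for both ligands, and number 2 showed the smallest difference.

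Il1rn and Il18 had smaller fold changes than the 2 IL-1 ligands, a difference between genes that was not tested. Il1rn stood at 55.0%, 73.0% and 41.6% of its LPS level (log2 fold change -0.86, blocked SE 0.15, adjusted p = 0.0134 with the block and 0.698 without it). Il18, at 499, 1024 and 813 in oxLDL+LPS libraries, stood at 54.9%, 88.3% and 52.5% (log2 fold change -0.66, blocked SE 0.13, adjusted p = 0.0222 with the block and 0.710 without it). Number 2 again showed the smallest difference. Il18bp, at 879, 891 and 962, did not pass the test, with a log2 fold change of 0.14 and a 95% interval of -0.09 to 0.37 in the blocked fit. The same was true of Il1rap, at 689, 679 and 709, with -0.24 (-0.47 to -0.02, adjusted p = 0.172).

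The 4 blocked calls were next fitted with 1 number left out. Without number 1 or number 3 none of the 7 members was called, and the genes called in all fell from 1682 to 71 and 0. The log2 fold changes without number 1 and without number 3 were -1.80 and -1.69 for Il1a, -1.87 and -1.84 for Il1b, -0.86 and -0.66 for Il1rn and -0.55 and -0.52 for Il18. The calls were thus lost while the differences kept their direction and most of their size. Without number 2 there were 5 members called, with Il1r1 added (adjusted p = 0.0562 in limma). In that fit 1099 of 12334 genes were called higher and 1846 lower, so calls rose over all genes and not for the members alone. Leaving out single libraries in the fit without a block gave log2 fold changes of -2.84 to -1.21 for Il1a and of -2.76 to -1.49 for Il1b, with no member called.

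**Figure D2:**
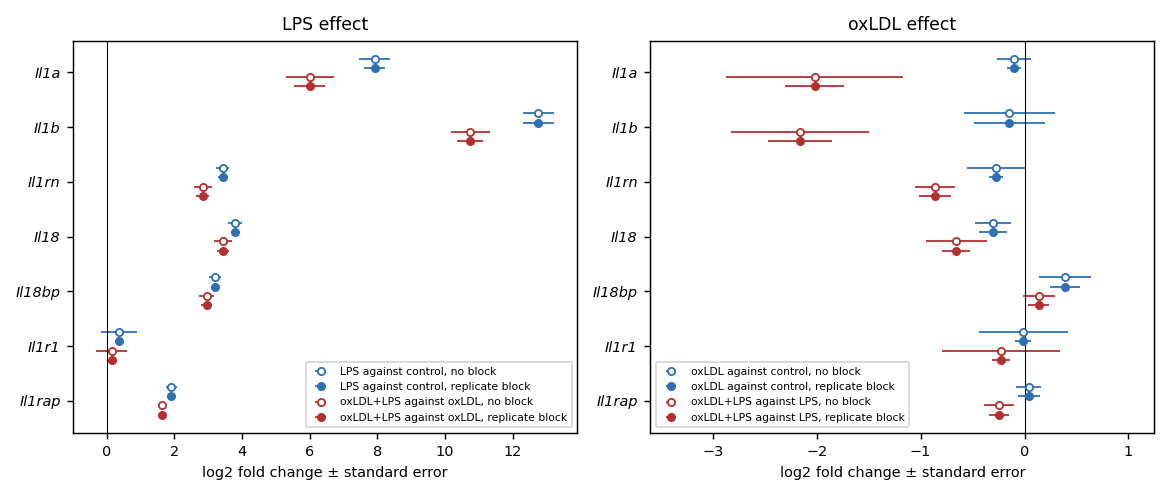
log2 fold change of the 7 members tested, with standard error, for the 2 LPS comparisons (left) and the 2 oxLDL comparisons (right), without a block (open) and with the replicate number as a block (filled). The estimates are the same in both fits, and for Il1a and Il1b in oxLDL+LPS against LPS the error shrinks from 0.85 to 0.29 and from 0.67 to 0.31.

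Whether the oxLDL effect differed between LPS-treated and untreated cells was tested as an interaction over all 12 libraries. The point estimates were -1.92 for Il1a, -2.02 for Il1b and -0.59 for Il1rn on the log2 scale. Without a block no member and 0% of 13482 genes were called in limma, with 418 genes, or 3.1%, and 1 member, Il1b, at an unadjusted p under 0.05. A block for the replicate number also called none, with adjusted p-values of 0.657 for Il1a and 0.669 for Il1b. With a block for the replicate number within each LPS state, 1.09% of genes were called and 0.682% in the negative direction, and Il1a was the 1 member called (SE 0.35, adjusted p = 0.0621). Il1b had an adjusted p of 0.1003 in that fit, just above the threshold and so not called, and Il1rn one of 0.184. The difference was negative in all 3 numbers for both ligands, at -2.24, -0.83 and -2.69 for Il1a and at -1.81, -1.27 and -2.97 for Il1b. For Il18 it was -0.65, 0.19 and -0.60, with both signs.

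**Figure D3:**
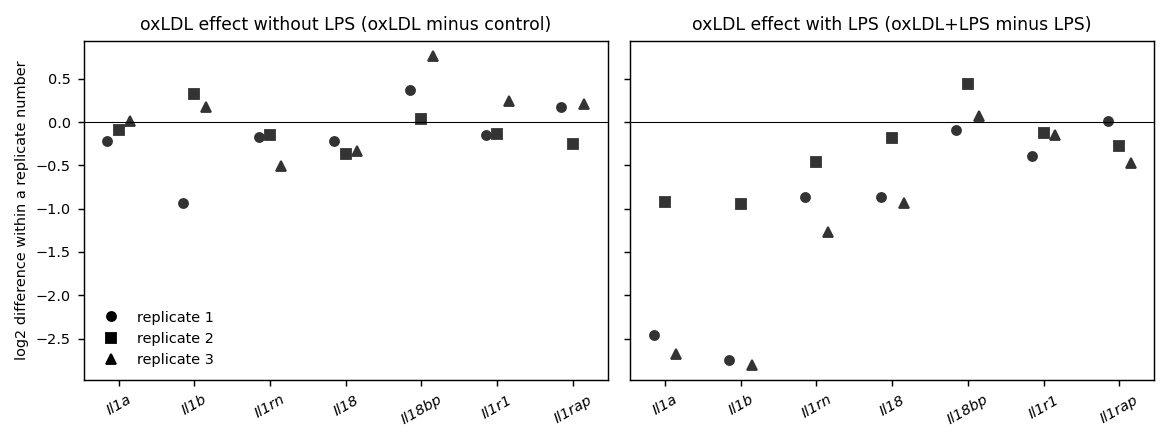
log2 difference between the oxLDL and control libraries (left) and between the oxLDL+LPS and LPS libraries (right) of the same replicate number, for the 7 members tested. Without LPS the differences of Il1a lie between -0.22 and 0.01, and with LPS they are -2.45, -0.92 and -2.68, with Il1b close to Il1a.

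The balance of antagonist to ligand was described by the ratio of normalized counts within each library, which is not corrected for gene length and can only be compared between libraries. The mean log2 ratio of Il1rn to Il1b was 7.99 ± 0.48 (SD, n = 3) in control and 7.87 ± 0.62 in oxLDL libraries. With LPS it was -1.33 ± 0.77, and individual libraries held 0.687, 0.384 and 0.237 counts of Il1rn per count of Il1b. In oxLDL+LPS libraries it was 2.53, 0.539 and 0.686, or a mean log2 ratio of -0.03 ± 1.20. Within each replicate number the ratio was higher with oxLDL+LPS than with LPS, but the ranges of the groups overlapped. Il1a stayed near Il1b in both LPS-treated groups, with log2 ratios of 0.10 ± 0.51 and 0.24 ± 0.40, after 4.94 ± 0.73 in control cells. The ratio of Il18bp to Il18 was -0.51 ± 0.48 with LPS and 0.29 ± 0.51 with oxLDL+LPS, again higher in each of the 3 numbers, and 0.07 ± 0.36 in control and 0.76 ± 0.45 in oxLDL libraries. The differences between these ratios were not tested.

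**Figure D4:**
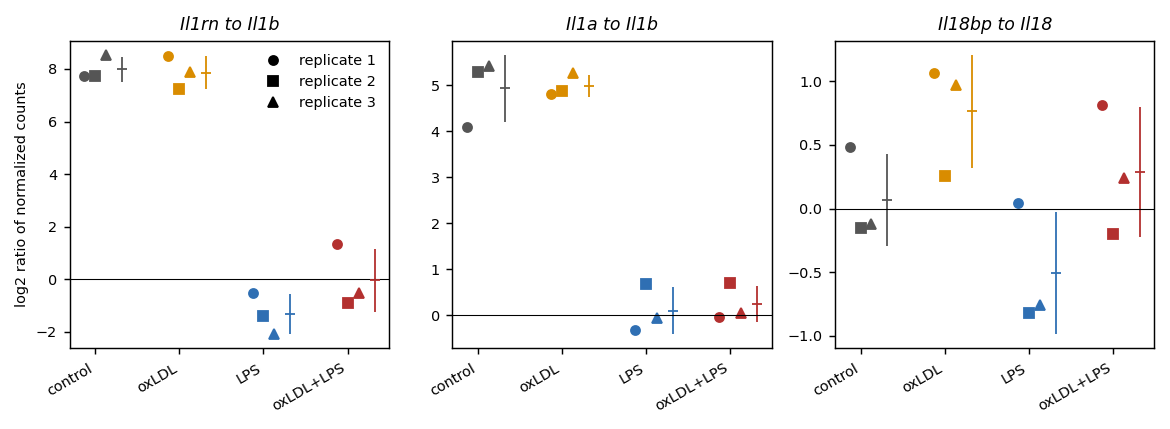
log2 ratio of normalized counts of Il1rn to Il1b, Il1a to Il1b and Il18bp to Il18 in each library, with mean and SD beside the points. The ratio of Il1rn to Il1b falls from means of 7.99 and 7.87 without LPS to -1.33 with LPS and -0.03 with oxLDL+LPS.

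The signalling receptor Il1r1, at chr1:40225080-40317257, varied with the replicate number far more than with treatment. It stood at 1007, 681 and 336 in control, 909, 619 and 399 in oxLDL, 1447, 876 and 384 in LPS and 1099, 806 and 345 in oxLDL+LPS libraries. In every group number 1 was the highest and number 3 the lowest, the order of the summed mesothelial and fibroblast markers. Those sums were 25532, 17843 and 5932 in control and 32245, 15083 and 6354 in LPS libraries. The part of these cells in the level of Il1r1 was not tested, and in whole cultures more cells of a type and more RNA per cell cannot be told apart.

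Il1r1 was 1.44, 1.29 and 1.14 times its control level with LPS in the 3 numbers, while the marker sums were higher in numbers 1 and 3 and lower in number 2. The single markers did not move alike with LPS. Pdgfra (2067, 1377 and 712 to 4164, 1506 and 1044) and Dcn rose in all 3 numbers. Lrrn4 (337, 213 and 93 to 198, 64 and 32) and Upk1b fell in all 3, and the remaining markers did neither. The log2 fold change of 0.36 was called with the block (SE 0.10, adjusted p = 0.0174), as were 68.7% of genes in either direction and 34.6% higher, and not without it (SE 0.53, adjusted p = 0.601), and it was -0.12 when libraries were scaled to the same total. In oxLDL-loaded cells it was 0.15 (adjusted p = 0.818, and 0.365 with the block). No treatment effect on Il1r1 thus held across these fits. Other members followed the marker order in some groups and not in others. Il1rn in oxLDL libraries was highest in number 1 and lowest in number 3, as the sums were, while Il1b in LPS libraries was lowest in number 1 and highest in number 3.

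The decoy receptor Il1r2, at chr1:40074079-40125231, was close to absent. Its normalized counts were 4, 3 and 1 in control, 1, 6 and 2 in oxLDL, 8, 6 and 3 in LPS and 3, 5 and 2 in oxLDL+LPS libraries, from 1 to 7 reads each. All groups overlapped. A difference between groups was not detectable at this depth.

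**Figure D5:**
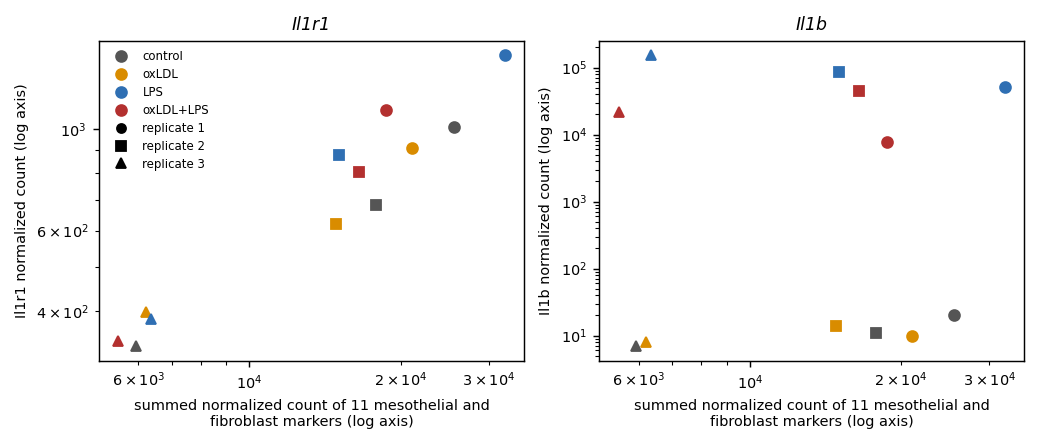
Normalized count of Il1r1 (left) and Il1b (right) against the summed normalized count of 11 mesothelial and fibroblast markers in the 12 libraries, on log axes, with colours for the group and symbols for the replicate number. Il1r1 rises with the marker sum, from 336 to 399 in number 3 to 909 to 1447 in number 1, while Il1b splits by LPS.

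Levels of different genes were compared as normalized counts per kilobase of annotated exon. In control cells the order was Il1rn (598 ± 179), Il1a (197 ± 34.3), Il1r1 (106 ± 52.7), Il18 (82.4 ± 11.8), Il18bp (29.4 ± 3.81), Il1rap (19.1 ± 1.39), Il1b (6.64 ± 3.49) and Il1r2 (1.40 ± 0.80; SD, n = 3). Only Il1r1 and Il18 overlapped among neighbours in that order. With LPS the ligands Il1a (54827 ± 29555) and Il1b (50630 ± 27165) overlapped at the top, above Il1rn (6272 ± 308) and Il18 (1170 ± 313). Il18bp, Il1r1 and Il1rap followed, each overlapping the next. With oxLDL+LPS, Il1a (17316 ± 17140) overlapped Il1b (12949 ± 9749), and Il1b overlapped Il1rn (3511 ± 806). The group ranges of Il1b and Il1rn, apart with LPS alone, thus overlapped with oxLDL+LPS. Within each oxLDL+LPS library, Il1b still stood above Il1rn per kilobase.

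The genes that carry the IL-1 signal inside the cell responded to LPS in both directions. Of 17 genes of receptor signalling, 9 rose and 5 fell against control, where 31.4% of all genes rose and 61.7% were called, with a median log2 fold change of 0.35. Myd88, the adaptor of IL-1 and Toll-like receptors, rose by 2.69 (SE 0.10), and Irak3, an inhibitory IRAK, by 2.65 (SE 0.10). The ubiquitin ligase genes Peli1 and Peli2 went opposite ways, by 3.28 (SE 0.14) and -3.14 (SE 0.14). Irak2, Traf6, Tab2, Tab3, Chuk and Ikbkb also rose, and Irak1, Irak4, Tab1 and Tollip fell. Between oxLDL+LPS and LPS none of the 17 was called without the block, and with it 3 were called, near the 13.2% of all genes, with Ikbkg higher and Ikbkb and Peli1 lower. For oxLDL alone the block called 1 of the 17, Irak2, lower (adjusted p = 0.0912 in limma), near the 4.71% of all genes called and 2.92% called lower.

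Of 12 genes of cytokine processing and release, 8 rose with LPS and 2 fell, beside the same 31.4% and 61.7% of all genes, with a median log2 fold change of 1.15. Nlrp3, the inflammasome sensor, rose by 5.86 (SE 0.24), Casp4, which senses intracellular LPS, by 4.56 (SE 0.12), Casp1, which cuts pro-IL-1β, by 2.28 (SE 0.15), and Gsdmd, the pore former, by 2.01 (SE 0.11). Casp8, Aim2, Nlrc4 and Capn1 rose as well, and Capn2 and Dfna5 (gasdermin E) fell. The adaptor Pycard was not called. Between oxLDL+LPS and LPS no gene of this list was called without the block, and with it, where 13.2% of all genes were called, Nlrp3 (-0.33, SE 0.08) and Aim2 (-0.30, SE 0.10) were lower and Nlrc4 (0.49, SE 0.11) and Ninj1 (0.37, SE 0.09) higher. Casp1 stood at 5634, 5416 and 7273 with LPS and 5596, 5534 and 6642 with oxLDL+LPS, with overlapping groups. Ninj1, needed for the membrane rupture of dying cells, was also higher with oxLDL alone under the block (0.23, SE 0.05, adjusted p = 0.0348).

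One relative of IL-1 showed the opposite order to Il1a and Il1b. Il1f9, which encodes IL-36γ, stood at 33, 20 and 25 with LPS and at 259, 29 and 332 with oxLDL+LPS. The log2 fold change was 2.38 (blocked SE 0.47, adjusted p = 0.0218 with the block and 0.698 without it). With the block, 565 of 12786 genes were called higher in this comparison. Number 2 again showed the smallest difference, as it did for Il1a and Il1b. Of 6 other ligand genes, Il1f9 and Il33 passed the filter, and both were called higher with LPS against control, as were 31.4% of all genes. Il1f9 was low in control libraries, at 15, 2 and 8. With oxLDL alone it was also higher in all 3 numbers, at 20, 5 and 61. That log2 fold change of 1.39 was not called (adjusted p = 0.126 with the block in limma). Il33, the alarmin of epithelial and stromal cells, went from 17, 26 and 3 to 111, 161 and 47, lowest in number 3 in both groups.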

How the data were processed

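The authors made poly(A) libraries with a directional kit, used Trimmomatic 0.32 for trimming and STAR 2.5.1b for alignment to mm10 (GRCm38), and counted exonic reads per gene with featureCounts. Whether counting used the strand is not given in the sources used here. The deposited table holds 1 whole-number score per gene and library, whose steps within a library are those of read counts scaled by 1 factor and then rounded, so count models were not used. A spreadsheet had turned 25 symbols into dates, and these were not assigned. Totals were 17152972 to 17709731 without LPS and 22071853 to 26384551 with it.

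Groups were compared with limma 3.58.1 (R 4.3.3; lmFit, eBayes with a trend) on log2(value + 1), so fold changes of low genes are understated. Genes that reached 10 in 3 or more of the compared libraries were tested, p-values were adjusted over all of them, and genes under 0.1 were called. Each comparison was fitted on its own 6 libraries and the interaction on all 12. The fit was tested on simulated data. The alternatives were other filters, pseudocounts (5 and 0.5), scalings, a shared fit, no trend, left-out libraries and a replicate block.

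Cells were pooled and divided among the 4 groups per the paper's methods. Deviations from group means, over 11186 genes, correlated by 0.709, 0.691 and 0.731 between control and oxLDL libraries of the same number, by 0.733, 0.664 and 0.691 between LPS and oxLDL+LPS, and by 0.33 or more between the other pairs, so the numbers pair the libraries.

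All 8 members were named, as were the list genes called and, for each member, the 3 genes most correlated with it. The members and lists were chosen with earlier results of these data known. Exon lengths are the union of exons in GENCODE vM21, and starts come from RefSeq. Il1a, Il1b, Il18bp and Il1rap share exon bases with a gene on the other strand, so their reads may include it.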

Additional observations from a re-analysis of the deposited data

Results flagged for a closer look

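The oxLDL effect on Il1a differed between LPS-treated and untreated cells in 1 of the 3 fits of the interaction. With a block for the replicate number within each LPS state, the effect with LPS minus that without was -1.92 on the log2 scale (SE 0.35, adjusted p = 0.0621 in limma), and it was negative in all 3 numbers. The other fits gave the same estimate with adjusted p-values of 0.657 and 1.00.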

How the results depend on the processing

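The 6 calls with LPS, in control and in oxLDL-loaded cells, kept their direction and stayed called under every alternative that tested them, left-out libraries included. A filter of 10 in every library left Il1b out. The calls of oxLDL effects depended on the replicate block, which called 1 member for oxLDL against control, 4 for oxLDL+LPS against LPS and, within each LPS state, 1 for the interaction, where the fit without a block called 0. With the block and without 1 number, members called ranged from 0 to 1 for oxLDL against control and from 0 to 5 for oxLDL+LPS against LPS. These fits also reversed the uncalled Il1r1 (0.0549 and 0.0498) and Il1rap (-0.0238 and -0.0407) for oxLDL against control and Il18bp (-0.0123) for oxLDL+LPS against LPS. For LPS against control the block added Il1r1 and changed no other call. In oxLDL+LPS against oxLDL it changed none, and with the block but without number 3 Il1r1 was called (0.33, adjusted p = 0.0914 in limma). With 2 numbers a blocked fit has 1 residual degree of freedom per gene, and its p-values depend on the spread borrowed from other genes. Over all genes the block moved the calls from 0 to 601 for oxLDL against control and from 0 to 1682 for oxLDL+LPS against LPS. The other alternatives called no member for oxLDL. Scaling to the same total reversed Il1r1 to -0.12 with LPS and to -0.24 in oxLDL-loaded cells, and moved the median of all genes by under 0.1 in the oxLDL comparisons. Left-out libraries reversed uncalled values, with Il1r1 from -0.0799 to 0.88 with LPS and from -0.20 to 0.63 in oxLDL-loaded cells. For oxLDL against control the ranges were -0.24 to 0.0368 for Il1a, -0.48 to 0.22 for Il1b, -0.45 to 0.34 for Il1r1 and -0.0297 to 0.13 for Il1rap. For oxLDL+LPS against LPS they were -0.0275 to 0.23 for Il18bp and -0.74 to 0.26 for Il1r1, and -0.73 to 0.27 for Il1r1 in the interaction. The causes were not tested. Il1r2 was tested without a filter on low values and was not called. Depth limits Il1r2 and Il1b without LPS.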

Other observations

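Il1bos, a gene antisense to Il1b that shares 25 exon bases with it, was at 0 in all 6 libraries without LPS, at 21, 73 and 102 with LPS and at 1, 25 and 1 with oxLDL+LPS. The union of exons is 2980 bases in Il1bos and 1907 in Il1b. Without knowing whether counting used the strand, reads on the stretch where the loci overlap cannot be assigned to either gene.

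Over the 12 libraries, whose log2 values share the split by LPS, the genes with profiles most like those of Il1a were Ccl3 (Pearson r = 0.998), Sbds and Rabgef1. For Il1b they were Rab21, Sp140 and Slc12a4, for Il1rn Fxr1, Rnf19b and Actb, for Il18 Usp12, Mllt6 and Rasa4, for Il18bp Psma4, Ppa1 and Fas, and for Il1rap Aim1, Ube2d2a and Abracl. Each of these 6 members had 1065 to 1614 of 13481 genes above a correlation of 0.95, so the order among them carries little. Il1r1 had 40 such genes, led by Hspb1 (0.981), Egfr (0.978) and Timp3 (0.977).

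Of 7 other receptor genes of the family, 4 passed the filter in LPS against control, where 31.4% of all genes were called higher. Only Il18rap, the accessory chain of the IL-18 receptor, was called, higher, from low counts of 3, 6 and 5 to 33, 25 and 11. Il1rl2, the IL-36 receptor, ranged from 124 to 348 over the 12 libraries with overlapping groups, and Il1rapl1 and Il1rapl2 were at 0 in all of them.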
